A study of Mus musculus with 45 samples.

Results

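Keratins, claudins, desmosomal proteins and their regulators form the gene set described here. It holds every gene of the deposited table named as a numbered keratin (Krt), claudin (Cldn), Grainyhead-like factor (Grhl), desmoglein (Dsg), desmocollin (Dsc) or epithelial splicing regulator (Esrp), together with Trp63, Dsp and Epcam. These rules found 43 of the 11220 listed genes: 16 keratins (6 of simple epithelia and 10 others), 16 claudins, 4 desmosomal genes, 6 regulators and Epcam. In the GENCODE M21 annotation 86 protein-coding genes carry such names, so the other matching genes are not analysed here. The rule reads gene names only, but the members and the gene lists used below were chosen with earlier results of these data known. The table itself is also a selection. Each of its genes reached a false discovery rate below 0.1 in 1 or more of the 12 comparisons that the authors ran among treated groups.

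Surface epithelia are sheets of cells sealed by tight junctions, whose strands are built of claudins, and riveted together by desmosomes. In a desmosome the cadherins Dsg and Dsc are tied by desmoplakin (Dsp) to filaments of keratin. Krt8, Krt18 and Krt19 are the keratins of simple epithelia, while Krt5, Krt14 and Krt15 belong to the basal layer of stratified epithelia, where the factor p63 (Trp63) is a defining regulator. Grainyhead-like factors switch on junction genes, the Esrp proteins impose epithelial splicing, and Epcam is an adhesion molecule of embryonic epithelia and of pluripotent cells. In the embryo, BMP signalling favours surface ectoderm over neural ectoderm.

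The 45 libraries are bulk mRNA-seq of mouse embryonic stem cells (mESCs) grown as adherent cultures toward spinal sensory interneurons, in 15 groups of 3. D0 was the undifferentiated line. D3 was the neuromesodermal progenitor stage that all later groups share, reached with bFGF and CHIR, an activator of WNT signalling. The R groups then received 100 nM retinoic acid (RA) without added BMP4, and were sampled on days 4, 5, 7 and 9. By the sample titles, the treatments of the day 7 and day 9 groups in every arm were given between days 3 and 5. The B groups had 24 h of RA alone before 24 h of RA plus BMP4 at 10 ng/ml, and were sampled on days 5, 7 and 9. The M groups received RA with BMP4 from day 3 for 48 h and were sampled on days 4, 5, 7 and 9. R6hr and B6hr were taken 6 h into the second 24 h, so B6hr had 6 h of BMP4. M therefore differs from B in when BMP4 began and in how long it lasted. By these titles, days 7 and 9 came after the treatments had ended. The labels give the interval of RA in more than 1 way, and that of the titles is used here. No cells were sorted.

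Values are the deposited normalized levels, which carry no unit and are not scaled for gene length. Levels are therefore compared between samples, and words such as low or abundant describe only the size of the deposited level. A sum over a list is weighted toward its genes of highest level. Changes are log2 differences of level + 1, with their standard error (SE) from 1 limma fit over all 45 libraries. This scale understates changes of low genes. A gene is called where its Benjamini-Hochberg adjusted p over the 11220 genes was under 0.05. In bulk RNA, fewer cells of a type and less RNA per cell cannot be told apart. The labels do not tie replicate numbers to the 3 independent differentiations, so p-values measure the spread between these samples, which may be technical.

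The levels in a library added up to 12245725 at the lowest and 15868724 at the highest, and the number of reads behind each library is unknown. Some libraries stood apart. The summed level of 10 pluripotency genes was 109068.1 in D0 replicate 3 against 20570.2 and 19066.6 in the other D0 libraries. The 12 genes of neural progenitors and neurons summed to 10750 in D3 replicate 1, the lowest of the D3 group, whose highest was 25863.2. In the same library the 5 listed notochord and node genes summed to 14883.3, against 1327.9 and 1097.9 in D3 replicates 2 and 3. Results that rest on D0 and D3 are given without these libraries, and also without the other 2 of their group. None of the levels was 0.

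Promoters were read for the 29 members that RefSeq sequence of the build GRCm38.p6 covered, whatever their levels did. Trp63, Krt15, Dsg2, Esrp1 and Grhl2 are not among them. The letters AACCNGTT, a form of the Grainyhead-like site, were searched on both strands in the 250 bases before each start, and so was CAGGTG, an E-box that Snail and Zeb repressors can bind. These motifs do not overlap each other in any sequence shown. AACCNGTT stood in 1 of 38 member windows, that of Cldn5, and in 1.79% of all 32851 windows of that length. CAGGTG stood in 12 member windows, belonging to 12 members, and in 17.2% of all windows. Of the members with CAGGTG, the sequences of Epcam, Grhl3 and Krt5 are shown. Grhl3 and Krt5 were called higher in M than in R on days 5, 7 and 9, and Epcam on days 5 and 7 only. Dsp and Grhl1, also called higher on days 5, 7 and 9, held neither motif in their windows and are not shown. The sequence of Cldn5 is shown because it holds the Grainyhead-like letters. A link between these letters and the levels was not tested. Capitals mark the matched letters, given as CACCTG or AACNGGTT where the match is on the other strand. The Epcam window, chr17:87635729-87635978 on the plus strand, holds its matches at -187 to -182 and at -19 to -14 from the start. The Grhl3 window is chr4:135573633-135573882 on the minus strand, with a match at -19 to -14. The Krt5 window is chr15:101712906-101713155 on the minus strand, with a match at -128 to -123. The Cldn5 window is chr16:18776597-18776846 on the plus strand, with a match at -20 to -13. A match describes letters, not a bound site.
Epcam: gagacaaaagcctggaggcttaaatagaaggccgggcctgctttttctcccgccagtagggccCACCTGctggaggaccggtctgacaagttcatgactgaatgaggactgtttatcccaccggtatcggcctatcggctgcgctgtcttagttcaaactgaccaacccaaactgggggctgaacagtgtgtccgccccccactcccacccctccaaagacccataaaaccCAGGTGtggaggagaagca
Grhl3: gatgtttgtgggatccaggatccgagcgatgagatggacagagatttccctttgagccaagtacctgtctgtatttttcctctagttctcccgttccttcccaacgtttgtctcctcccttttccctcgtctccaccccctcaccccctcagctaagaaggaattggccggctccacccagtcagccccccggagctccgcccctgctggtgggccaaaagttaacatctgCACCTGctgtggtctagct
Krt5: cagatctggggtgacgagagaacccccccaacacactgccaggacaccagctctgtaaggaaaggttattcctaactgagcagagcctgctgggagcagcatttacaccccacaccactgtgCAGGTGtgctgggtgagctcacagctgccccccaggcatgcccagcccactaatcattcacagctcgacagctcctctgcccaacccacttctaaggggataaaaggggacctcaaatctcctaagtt
Cldn5: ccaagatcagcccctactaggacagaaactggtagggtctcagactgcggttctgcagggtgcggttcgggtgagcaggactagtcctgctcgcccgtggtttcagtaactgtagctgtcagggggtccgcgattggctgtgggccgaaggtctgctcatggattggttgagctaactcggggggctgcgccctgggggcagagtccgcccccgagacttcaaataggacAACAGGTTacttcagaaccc

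Between D0 and D3, before any RA or BMP4, Krt42 and Krt13, both high in mESCs, fell, and the 4 desmosomal genes and 6 of 16 claudins rose. Of the 43 members, 13 were higher at D3 and 7 lower, beside 30.9% and 24% of all listed genes, so neither count exceeded the background. Krt42 had levels of 142.2, 154.1 and 266.5 in the D0 libraries and of 1.747, 3.933 and 4.601 at D3. Krt13 had 55.46, 49.08 and 46.95 at D0 and was below 1 in all D3 libraries. The D0 and D3 ranges of both genes lay far apart. Their log2 changes were -5.42 (SE 0.64) and -4.81 (SE 0.47). Krt20 and Krt17 fell as well, by 3.38 and 2.71 on the log2 scale, and Grhl3 by 1.37. Dsc2, a desmosomal cadherin, went the other way, from 109.1, 69.12 and 102.5 to 867.8, 484.8 and 618.1 (log2 change 2.78, SE 0.20, limma adjusted p = 5.03e-13).

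A pair of low genes peaked at D3. Krt23 stood at 23.2, 65.97 and 69.74 at D3 against 1.285 to 3.045 at D0 (log2 change 3.92). Cldn26, for which no annotation entry matched, stood at 125.1, 89.77 and 68.84 against 0.3844 to 3.711 (log2 change 5.10). Both then fell by day 4 under RA, by 4.04 and 3.09 on the log2 scale. In the comparison of R4 with D3, 5 members were higher and 8 lower, beside 11.7% and 12.6% of listed genes. Cldn11 rose from 29.05, 11.81 and 20.2 at D3 to 93.34, 128.9 and 109.4 in R4 (log2 change 2.46). Cldn5, Cldn7 and Dsg2 fell by 2.54, 2.00 and 1.62 on the log2 scale. Without D0 replicate 3, the D3 over D0 comparison called 22 members, and without D3 replicate 1 it called 23, each time including 19 of the 20 above. Without D3 replicate 1, R4 over D3 called 13, of which 11 were the same. With D0 replicate 3 kept and D0 replicates 1 and 2 left out, the D3 over D0 comparison called 17 members, 7 higher and 10 lower, of which 12 were among the 20 above. Fitted on the compared libraries alone, the D3 over D0 comparison kept 14 of the 20 calls. Lost there were Cldn3, Cldn10, Dsp, Esrp1, Esrp2 and Grhl3. Dsg2, Dsc3, Cldn3 and Cldn7 were not called with D0 replicate 3 alone. The call of Dsp was lost without D0 replicate 2 or 3 or D3 replicate 1 (limma adjusted p up to 0.4) and after quantile normalization. Quantile normalization gave 11 higher and 10 lower. Of the 10 pluripotency genes, 9 were lower at D3 than at D0, with sums of 3218.3 to 8022.1 at D3, and their part in the falls of Krt42 and Krt13 was not tested. With D3 replicates 2 and 3 left out, R4 over D3 called 7, and Cldn5 was no longer among them.

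Members of several classes were called higher in M4 than in R4. On day 4, after 24 h of RA with BMP4, 17 members were higher than in R4 and 3 lower, beside 6.76% of listed genes called higher and 7.37% lower. This comparison was one of those the authors used to keep genes in the table, so nothing is read from these shares. Trp63 had 590.2, 241.5 and 430.9 in the M4 libraries and 19.56, 14.15 and 7.294 in R4. Every M4 library was above every R4 library (log2 change 4.85, SE 0.48, limma adjusted p = 3.06e-08). Krt15, the basal keratin, had 504.2, 259.5 and 256.9 in M4 against 26.14, 24.28 and 31.05 (log2 change 3.53, SE 0.58). Krt13 and Krt5 were higher by 2.84 and 1.98, and Cldn8 by 2.34.

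Of the 6 simple-epithelial keratins, Krt8, Krt18, Krt19 and Krt23 were called higher on day 4. Krt8 stood at 3628, 2531 and 2212 in M4 and at 731.3, 728.5 and 577.5 in R4, a log2 change of 2.01 (SE 0.20). Its partner Krt18, which forms filaments with it, stood at 5736, 3379 and 3070 against 1049, 1062 and 936.1 (log2 change 1.94, SE 0.25). Krt19 was at 1807, 975.7 and 1034 against 414.5, 394.4 and 314 (log2 change 1.71, SE 0.33). None of these M4 and R4 ranges overlapped. Krt7 and Krt20 overlapped and did not pass (log2 differences 0.26 and -0.36). The call of Krt23 (log2 change 1.34) was lost without any of the R4 libraries or M4 replicate 1 or 2 (limma adjusted p up to 0.159). Krt8 and Krt18 lie 23.7 kb apart on chromosome 15, at chr15:101996698-102004482 and chr15:102028180-102032027 (mm10).

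Other regulators joined Trp63 on day 4. Grhl2 had 336, 642.7 and 279.8 in M4 and 118.3, 109.7 and 43.68 in R4 (log2 change 2.23, SE 0.49). Esrp1 had 554, 603.8 and 647.2 against 270.8, 277.5 and 149.4 (log2 change 1.42, SE 0.34). Both sets of libraries were separate. Epcam, at 1413, 1921 and 1235 against 973.4, 856.5 and 518.5, did not pass (log2 difference 0.98, limma adjusted p = 0.099). Dsp was level between these groups, with a log2 difference of -0.06 (SE 0.29), while Dsg2 was higher by 1.26. Of the claudins, Cldn6, Cldn7 and Cldn9 were higher by 1.07, 1.66 and 1.56, and Cldn11 and Cldn1 lower by 1.70 and 1.45. Cldn5 was higher by 1.76. Beside it, 7 of 10 endothelial and blood genes were higher and none lower, with sums of 2059.1 to 4383 in M4 against 680.3 to 1070.6 in R4, where Lyl1 was under 10, and their part was not tested. Without M4 replicate 2, 13 members were called, and the calls of Dsg2 (limma adjusted p = 0.0618), Cldn11 (0.0606), Cldn1 and Cldn5 were lost. Cldn1 was also lost without R4 replicate 1 or 3 (limma adjusted p up to 0.179), Cldn5 without R4 replicate 2 (up to 0.113) and Cldn9 without R4 replicate 3 (0.0571). Fitted on the compared libraries alone, 11 members were called, all higher, and Grhl2, Cldn5, Cldn8, Cldn9, Cldn11 and Cldn1 were not among them.

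**Figure D1:**
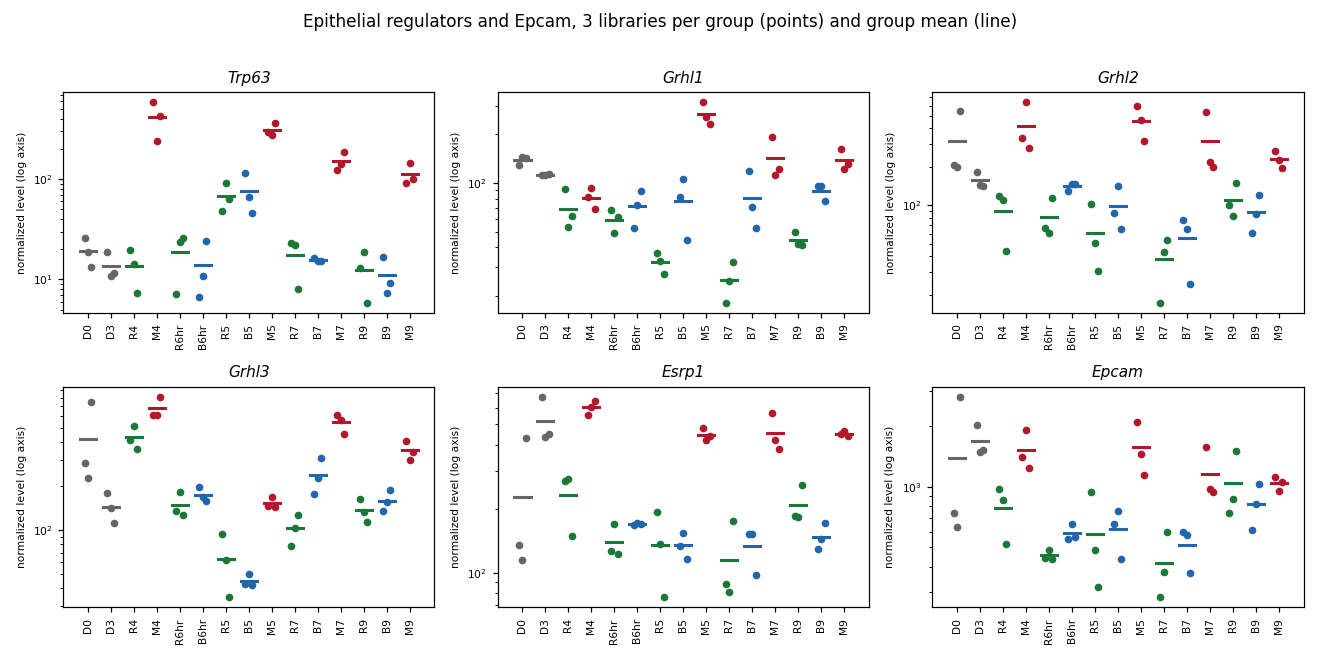
Normalized level on a log axis of Trp63, Grhl1, Grhl2, Grhl3, Esrp1 and Epcam in all 15 groups. Points are the 3 libraries of a group and lines the group means; D groups are grey, R green, B blue and M red. Trp63 in the M groups lay between 91.28 and 590.2, and from day 4 on it stayed at or below 116.6 in every R and B library.

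From day 5 to day 9 part of each class other than Epcam was higher in M than in R on every day sampled. Of the 6 regulators 5, 6 and 5 were called higher on days 5, 7 and 9, and of the 4 desmosomal genes 2, 3 and 4. Dsg2, Dsp, Esrp1, Grhl1, Grhl3, Krt15, Krt5 and Trp63 were called higher on each of these 3 days. Only Cldn2, Cldn10 and Cldn12 were called lower on each of them. On day 5, 15 members were higher and 7 lower in M than in R, beside 21% and 23.3% of all listed genes. On day 7, 22 were higher and 4 lower, beside 22.9% and 20.6%. On day 9, 17 were higher and 6 lower, beside 27.5% and 23.5%. In either direction 22, 26 and 23 of the 43 members were called on days 5, 7 and 9, beside 44.3%, 43.5% and 51% of listed genes. The total of day 9 was near the share of all genes, and that of day 5 little above it. Over the 43 members the median log2 difference was 0.53, 1.15 and 0.36 on the 3 days, and over all genes -0.02, 0.01 and 0.04. These 3 comparisons were not among those used to keep genes in the table, although M and R groups entered others that were.

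Trp63 fell from day 5 to day 9 in R and M and was higher in M on each day. In M it had 298, 275.8 and 365.9 on day 5, 124.1, 140.5 and 188.4 on day 7, and 91.28, 146.5 and 99.74 on day 9. In R it had 47.83, 91.65 and 63.33, then 23.29, 21.83 and 8.022, then 12.87, 18.88 and 5.84. On no day did the libraries of these arms overlap. The log2 differences were 2.23, 3.13 and 3.17 (SE 0.48 each). The fall from day 5 to day 9 was 2.42 in R and 1.49 in M on the log2 scale. The one in M did not pass with M5 replicate 3, M9 replicate 1 or M9 replicate 3 left out (limma adjusted p up to 0.0744). Trp63 lies at chr16:25683763-25892102 on the plus strand (mm10).

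The Grainyhead-like factors were higher in M with different courses. Grhl1 stood at 316.6, 254.9 and 231.6 in M5 against 36.99, 32.82 and 27.36 in R5 (log2 change 3.01, SE 0.28, limma adjusted p = 4.16e-10). It was also higher on days 7 and 9, by 2.45 and 1.61. Grhl2 was higher by 3.02 on day 5 and 3.03 on day 7. On day 9 it had 264.9, 224.2 and 195.6 in M against 100.8, 82.15 and 149.8 in R and did not pass (log2 difference 1.07, limma adjusted p = 0.0686). Grhl3 differed most on day 7, at 605.8, 567 and 454.2 in M against 77.92, 103.2 and 126.4 in R (log2 change 2.41, SE 0.31).

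Of the splicing regulators, Esrp1 was nearly flat in M, between 383.3 and 647.2 in all 12 M libraries. In R on days 5, 7 and 9 it ranged from 76.4 to 259.2. Its log2 differences were 1.81, 2.05 and 1.13. Esrp2 was higher in M on days 7 and 9, by 1.32 and 1.59, and did not pass on day 5. Epcam was higher in M on days 5 and 7, by 1.53 and 1.49. Beside it, 9 of 10 pluripotency genes were higher in M5 than in R5 and none lower, with sums of 2489.9 to 6153.7 against 634.4 to 1483.5. On day 7 none of them passed, with sums of 1708.7 to 6493 in M7 and 1089.8 to 2895 in R7. Their part in the changes of Epcam, and of Krt13 and Krt42 on day 5, was not tested. On day 9 it stood at 1114, 958.4 and 1057 in M and at 739.7, 869.9 and 1513 in R, and these libraries overlapped (log2 difference 0.07, SE 0.40). The change of Epcam from day 5 to day 9 differed between M and R by -1.46 on the log2 scale (limma adjusted p = 0.0391). That call was lost with any of R5 replicates 2 and 3, M5 replicates 1 and 2, R9 replicate 3 or any M9 library left out (adjusted p up to 0.143).

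The desmosomal genes Dsp and Dsg2 were higher in M on all 3 days. Dsp had 4331, 6913 and 5980 in M5 against 2022, 1432 and 1620 in R5, and 4198, 6024 and 4634 in M7 against 680, 855.2 and 1091 in R7. On day 9 it had 4335, 5564 and 3042 against 776, 995.3 and 780. The M libraries were above the R libraries throughout. The log2 differences were 1.75, 2.51 and 2.31 (SE 0.29 each). Dsg2 was higher by 2.02, 2.60 and 1.47. Dsp lies at chr13:38151294-38198577 on the plus strand (mm10).

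The desmocollins, the other desmosomal cadherins, were called on later days. On day 5 Dsc2 was at 488.1, 559.2 and 545.6 in M and at 719.3, 590.3 and 650.9 in R, which did not pass (log2 difference -0.30, SE 0.20). On day 7 it was at 1189, 1696 and 933.2 in M against 209.7, 222.7 and 303.9 in R. On day 9 it was at 1113, 1317 and 1261 against 187.1, 243.8 and 217.3. Between days 5 and 9 Dsc2 thus rose in M and fell in R, and the difference of these changes was 2.81 (SE 0.29, limma adjusted p = 1.56e-08). Its neighbour Dsc3, 28.3 kb away on chromosome 18, was low, between 26.54 and 51.04 in M9 and between 5.125 and 13 in R9 (log2 change 1.86).

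Among keratins, those of the basal layer stood highest over R on day 9. Krt15 had 515.4, 573.4 and 339 in M9 against 10.11, 10.49 and 6.924 in R9 (log2 change 5.54, SE 0.58, limma adjusted p = 4.37e-09). On days 5 and 7 its differences were 2.47 and 2.36. Krt5 had 56, 61.61 and 70.92 in M9 against 7.362, 9.256 and 6.517 in R9 (log2 change 2.88, SE 0.41), with 2.96 and 2.90 on days 5 and 7. For both genes every M library on these 3 days was above every R library of the same day. Krt14, the usual partner of Krt5, stayed low, at 9.661, 13.91 and 17.82 in M9 against 4.921, 2.121 and 2.221 in R9. Its call (log2 change 1.88) was lost without R9 replicate 2 or 3 or without M9 replicate 2 or 3 (limma adjusted p up to 0.0748).

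Krt8 and Krt18 followed another course. Krt8 was higher in M by 1.37 on day 5 and 1.19 on day 7, with 3126, 3345 and 2783 in M5 against 1276, 1268 and 1036 in R5. On day 9, at 795, 1297 and 1233 against 865.5, 1014 and 850.8, it overlapped R (log2 difference 0.26, SE 0.20). Krt18 and Krt19 passed in none of the M over R comparisons after day 4, and on day 9 their differences were -0.23 and 0.27. From day 5 to day 9 Krt8 and Krt18 fell in M by 1.50 and 1.22 on the log2 scale. Krt7, also a simple-epithelial keratin, was lower in M5 than in R5 (log2 change -1.56), higher in M9 than in R9 (1.35), and rose in M by 1.48. Its day 5 call was lost without R5 replicate 2 or M5 replicate 3 (limma adjusted p up to 0.0589). On day 9 it was lost without R9 replicate 2 or 3 or M9 replicate 2 or 3 (up to 0.106), and the rise without replicate 2 or 3 of M5 or M9 (up to 0.12). Krt13 was higher by 3.84 on day 5, with 36.49, 45.48 and 24.97 in M5 against 0.7611 to 3.687 in R5, and fell by 3.06 in M by day 9.

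**Figure D2:**
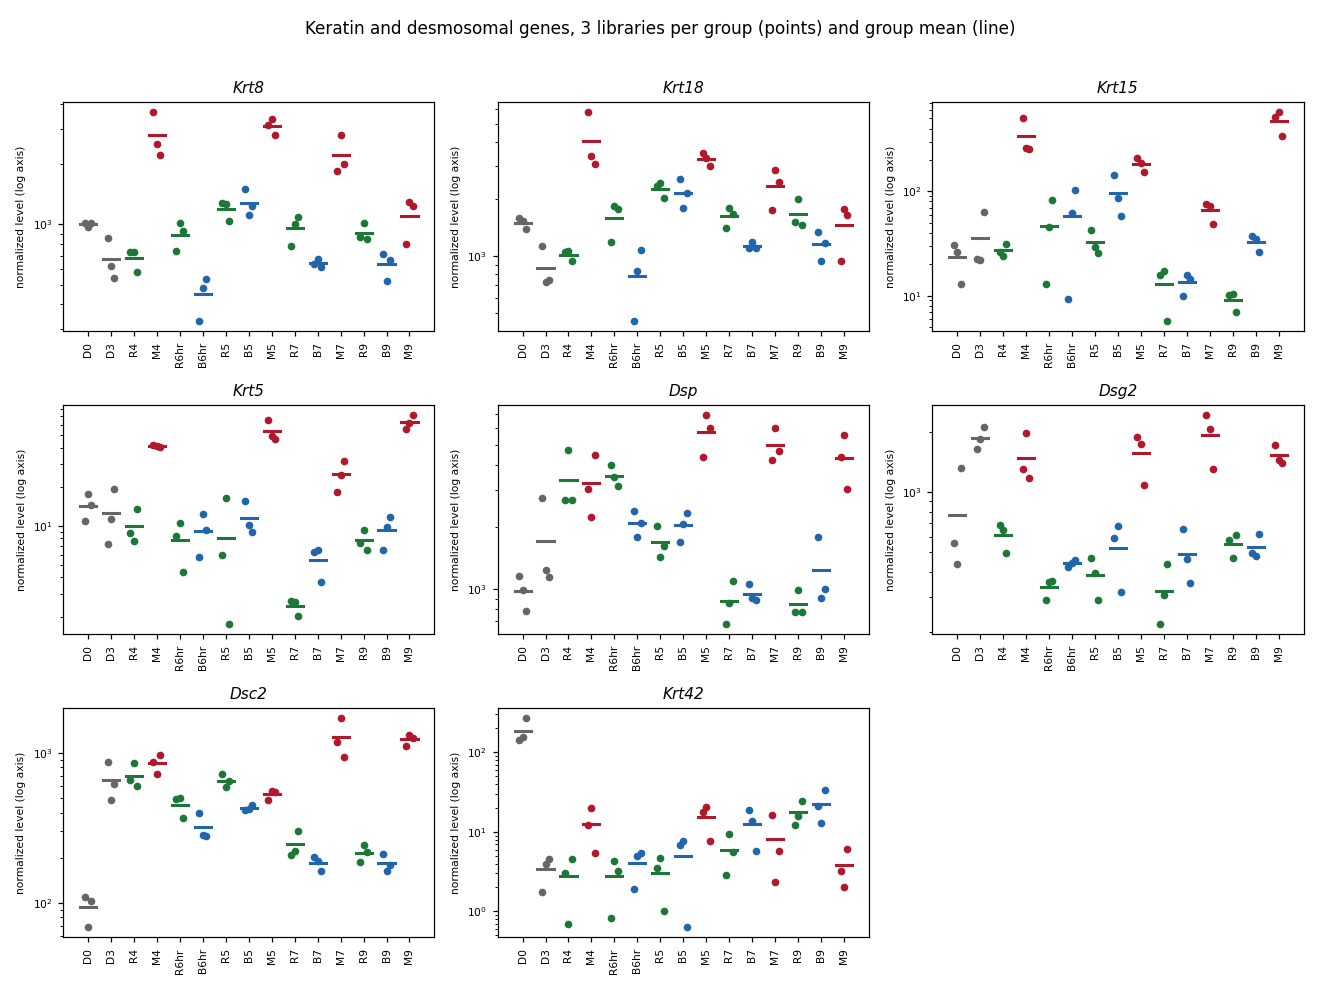
Normalized level on a log axis of keratin genes (Krt8, Krt18, Krt15, Krt5, Krt42) and desmosomal genes (Dsp, Dsg2, Dsc2) in all 15 groups. Points are the 3 libraries of a group and lines the group means; D groups are grey, R green, B blue and M red. Dsc2 in M7 and M9 lay between 933.2 and 1696, and Krt15 was highest in M9 at 339 to 573.4.

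Claudins were called in both directions. Cldn10, a pore-forming claudin, had 61.45, 84.67 and 95.38 in R5 against 4.311, 4.465 and 8.61 in M5. On day 7 it had 47.4, 77.84 and 64.24 in R against 2.066, 3.818 and 2.447 in M, and on day 9 60.25, 86.98 and 49.93 against 9.209, 7.024 and 8.246. All M libraries were below all R libraries on each day, with log2 changes of -3.62, -4.09 and -2.83 (SE 0.39 each). Cldn2, which forms cation pores, fell by 3.74, 2.45 and 2.69 on the log2 scale. Cldn12 was abundant and differed less, by -0.86, -1.02 and -0.39, with 1080 to 1266 in M7 and 2233 to 2666 in R7. On day 7 the call of Cldn2 was lost when the compared libraries were fitted alone.

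Other claudins were lower in M on some days. Cldn1, a barrier claudin of skin, had 23.42, 23.31 and 27.7 in M5 against 187.8, 380.5 and 286 in R5 (log2 change -3.41, SE 0.44). By day 9 it had 62.22, 97.12 and 72 in M and 85.09, 69.92 and 37.37 in R, which overlapped. The change from day 5 to day 9 therefore differed between M and R by 3.73 (SE 0.63, limma adjusted p = 2.98e-05). Cldn19 had 33.53, 32.58 and 34.02 in the R9 libraries and 1.673 to 2.839 in M9 (log2 change -3.36, SE 0.54). Cldn9, which lies 137 bases from Cldn6 on the other strand, was lower in M by 1.48 on day 5 and by 1.50 on day 9, while Cldn6 passed on none of these days. The protocol does not state that strand was kept, so reads of such close genes may not be told apart.

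Of the 16 claudins, 2, 6 and 2 were called higher in M than in R on days 5, 7 and 9. Lower were 6, 4 and 5. Of all listed genes, 21%, 22.9% and 27.5% were higher and 23.3%, 20.6% and 23.5% lower. In either direction 8, 10 and 7 claudins were called, beside 44.3%, 43.5% and 51% of listed genes. On days 5 and 9 the claudins were thus near the share of all genes. Cldn8 had 12.82, 26.55 and 17.01 in M9 against 0.8978, 2.8 and 1.867 in R9 (log2 change 2.79, SE 0.50), and was higher by 2.33 on day 7. Cldn11 had 78.94, 74.19 and 70.79 in M9 against 17.7, 19.62 and 14.91 in R9 (log2 change 2.05, SE 0.39), although it was lower in M4. Cldn7 was higher by 0.99 on day 5 and 1.06 on day 7, calls lost without R5 replicate 3 or M5 replicate 1 and without R7 replicate 1 (limma adjusted p up to 0.0924 and 0.0838). Cldn15 and Cldn26 were higher on day 7, by 1.15 and 1.39. Cldn15 was lost without R7 replicate 1 or 2 or M7 replicate 1 or 2 (up to 0.363), and Cldn26 without R7 replicate 2 (0.0714). Cldn5, the claudin of endothelium, was higher by 1.83 on day 5 and 2.03 on day 7, with 244, 318.8 and 313.7 in M5 against 57.66, 119.1 and 77.68 in R5. On day 9 its libraries overlapped (log2 difference 0.46). Beside Cldn5, 7 of 10 endothelial and blood genes were higher in M5 than in R5 and 8 in M7 than in R7. Their summed levels were 3574.9 to 4217 in M5 and 962.5 to 1818.9 in R5, with Lyl1 under 10 in all R5 libraries, and 1738.2 to 2897.4 in M7 and 833.2 to 1367.2 in R7, where Emcn and Lyl1 were under 10. Their part in the change of Cldn5 was not tested.

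**Figure D3:**
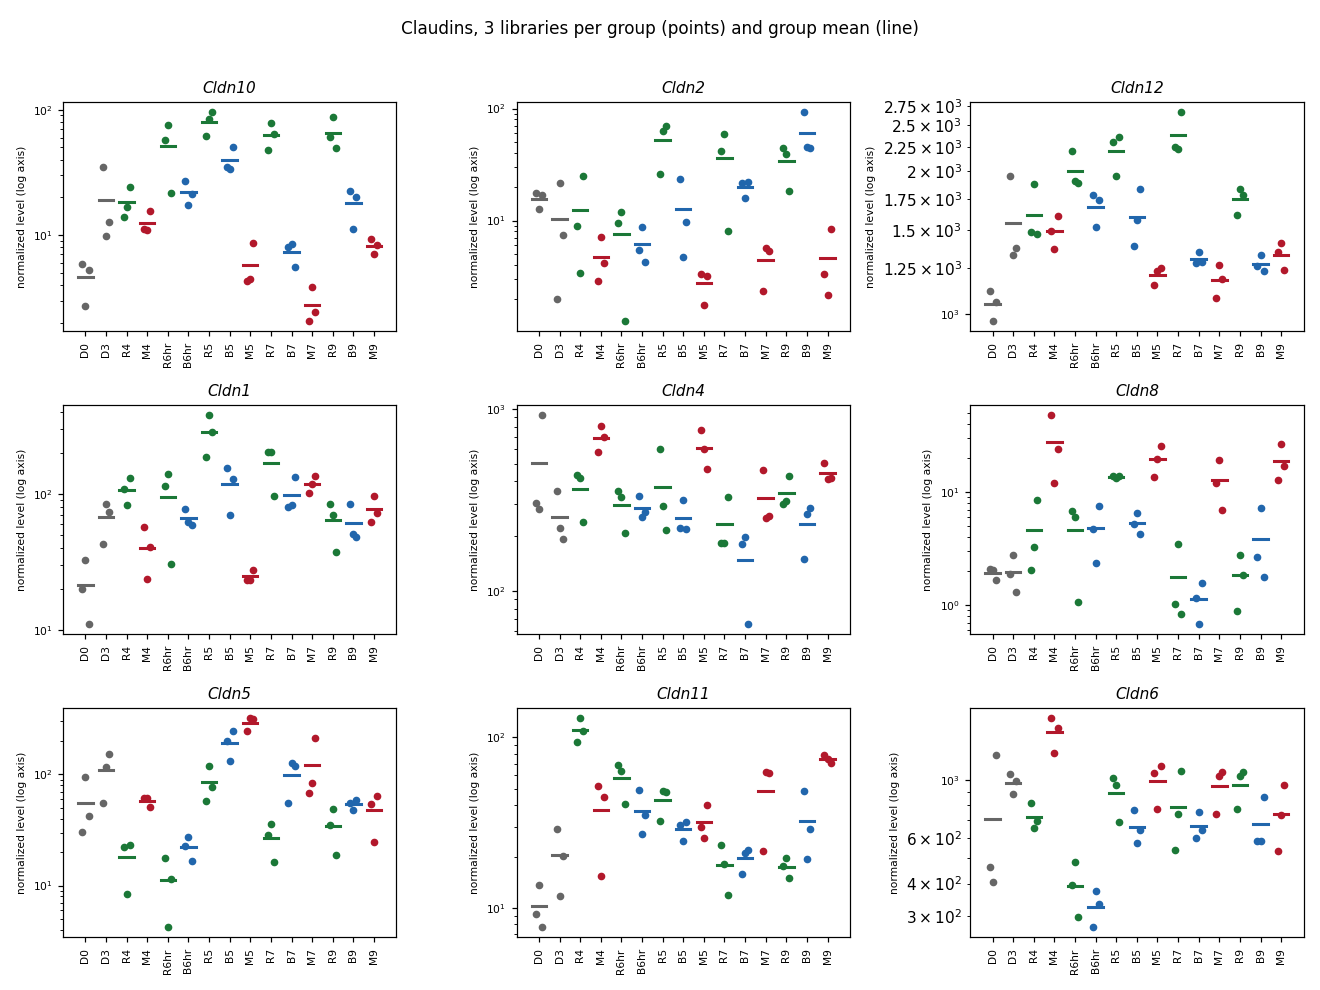
Normalized level on a log axis of Cldn10, Cldn2, Cldn12, Cldn1, Cldn4, Cldn8, Cldn5, Cldn11 and Cldn6 in all 15 groups. Points are the 3 libraries of a group and lines the group means; D groups are grey, R green, B blue and M red. Cldn10 lay between 2.066 and 9.209 in the M libraries of days 5, 7 and 9 and between 47.4 and 95.38 in the R libraries of those days.

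With BMP4 added on day 4, Grhl1 and Cldn12 were the members called against R on all 3 days. In B5 over R5, 2 members were higher and 1 lower, beside 2.76% and 3.23% of listed genes. In B7 over R7 these counts were 4 and 3, beside 12.1% and 11.6%. In B9 over R9 they were 5 and 3, beside 6.12% and 5.71%. After quantile normalization the counts were 1 and 2 on day 5 and 5 and 5 on day 9. The authors used these 3 comparisons to keep genes, so nothing is read from the shares. Grhl1 was higher on each day, by 1.16, 1.60 and 1.00, and Cldn12 lower, by 0.47, 0.86 and 0.45 on the log2 scale. Without B5 replicate 1, B5 replicate 2 or R5 replicate 3, the day 5 calls of Grhl1 and Cldn12 were lost (limma adjusted p up to 0.129 and 0.103), and the fit on the compared libraries called none of the 3. The effect of 24 h of BMP4 in M4 over R4 exceeded that in B5 over R5 for 5 members, beside 1.13% of listed genes. They were Trp63, Cldn8, Cldn9, Krt18 and Krt8. Both of these comparisons were used to keep genes, so nothing is read from this share either. The R levels also differed between the days, with Trp63 at 7.294 to 19.56 in R4 and at 47.83 to 91.65 in R5. On day 9 the call of Cldn12 was lost without R9 replicate 2 (adjusted p 0.0622), and that of Grhl1 without R9 replicate 2 or 3 or B9 replicate 1 or 2 (up to 0.0665).

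Trp63 gave no call in B. Its libraries were 116.6, 66.95 and 46.32 in B5 and overlapped those of R5 (log2 difference 0.13, SE 0.48). On days 7 and 9 the differences were -0.05 and -0.11. Dsp, Esrp1, Grhl2, Epcam, Krt18, Krt19 and Cldn6 also passed in none of these B over R comparisons. On day 7 Grhl1, Grhl3, Krt13 and Cldn5 were called higher in B, and Cldn10, Cldn12 and Krt8 lower. Grhl3 had 176.2, 227.8 and 307.5 in B7 against 77.92, 103.2 and 126.4 in R7. Krt8 had 637.6, 668.9 and 615.3 in B7 against 781.6, 1010 and 1086 in R7. The day 7 calls of Cldn5, Krt13 and Krt8 were each lost in some fit that left out 1 library. Cldn10 was the member with the clearest fall, to 8.008, 8.406 and 5.521 in B7 against 47.4, 77.84 and 64.24 in R7 (log2 change -2.94, SE 0.39). On day 9 it was lower by 1.83.

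The called rises of B over R on day 9 were 4 keratins and Grhl1. Krt14 had 25.18, 36.2 and 45.5 in B9 and 4.921, 2.121 and 2.221 in R9 (log2 change 3.19, SE 0.69, limma adjusted p = 0.00319). Krt17 had 15.48, 33.24 and 52.91 against 5.544, 2.698 and 5.545 (log2 change 2.53, SE 0.67), and Krt7 220.1, 209.3 and 250.2 against 107.7, 66.31 and 50.27 (log2 change 1.65, SE 0.48). The B9 and R9 libraries did not overlap for these 3 genes. Krt15 was higher by 1.74 (adjusted p = 0.0459 by limma), a call lost with any 1 of the R9 or B9 libraries left out (up to 0.144) and with the replicate block. The call of Krt17 was lost without R9 replicate 2 or B9 replicate 3 (adjusted p up to 0.0742), and that of Krt7 without R9 replicate 2 or 3 or B9 replicate 1 or 3 (up to 0.111). In B9 over R9, 2 members were called without R9 replicate 2, and 5 without R9 replicate 3 or B9 replicate 3. Between days 5 and 9 Krt14 rose in B by 3.52, whereas in R its difference was -0.03.

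At 6 h of BMP4 no member was called, beside 0.0178% of listed genes, while 12 members had an unadjusted p under 0.05 in the limma fit. Krt8 stood at 330.7, 480.3 and 531.8 in B6hr and at 733.6, 1014 and 923.3 in R6hr (log2 difference -1.01, SE 0.20, limma adjusted p = 0.0514). Krt18 was at 454.2, 834.4 and 1068 against 1186, 1828 and 1762 (log2 difference -1.08). These libraries did not overlap. The numbers paired these 6 libraries, and with the number as a block in a fit on them alone 10 members were called, beside 25.9% of all genes. In that blocked fit Krt8, Krt18, Dsp, Dsc2, Cldn9 and Cldn12 were lower, and Dsg2, Epcam, Grhl2 and Krt17 higher. The authors' deposited table called 2 members at this time, both lower in B6hr.

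M was also set against B directly. In M5 over B5, 14 members were higher and 4 lower, beside 8.57% and 9.23% of listed genes. In M7 over B7, 20 were higher and 2 lower, beside 21.7% and 19.9%. In M9 over B9, 16 were higher and 6 lower, beside 27.8% and 23.7%. The genes of the table were selected on these contrasts too, so nothing is read from the shares. Called higher on all 3 days were Cldn4, Cldn8, Dsg2, Dsp, Esrp1, Grhl2, Grhl3, Krt5, Krt8 and Trp63, and only Cldn10 was lower on all 3. The 6 lower calls of day 9 were 3 claudins, 2 other keratins and 1 simple-epithelial keratin. Cldn2 had 92.63, 45 and 44.2 in B9 against 3.346, 2.182 and 8.483 in M9. Cldn19 had 14.62, 23.18 and 31.75 in B9 against 2.646, 1.673 and 2.839 in M9. Trp63 was higher by 2.11, 3.18 and 3.28 (SE 0.48 each), and Dsp by 1.48, 2.36 and 1.83 (SE 0.29 each). Krt15 had 515.4, 573.4 and 339 in M9 against 37.56, 34.85 and 26.04 in B9 (log2 change 3.80). Dsc2 was higher by 2.74 and 2.73 on days 7 and 9.

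Several of the M over B calls depended on single libraries. Epcam was higher by 1.34 on day 5, lost without B5 replicate 3 or M5 replicate 1 (limma adjusted p up to 0.117). On day 7 it was higher by 1.16, lost without B7 replicate 3 or M7 replicate 1 (up to 0.0979). Grhl2 on day 9 (log2 change 1.40) was lost without B9 replicate 1 or M9 replicate 1 (up to 0.0816). Cldn8 on day 5 was lost without B5 replicate 3 or without M5 replicate 2 or 3 (up to 0.0842). Cldn4 was lost on day 5 without B5 replicate 1 or 3 or M5 replicate 1 or 2, on day 7 without B7 replicate 3 or M7 replicate 1, and on day 9 without B9 replicate 1 or 2 or any M9 library (up to 0.207). Cldn10 on day 7 was lost without B7 replicate 1 or 2 or M7 replicate 1 or 3, and on day 9 without B9 replicate 1 or 3 or M9 replicate 2 or 3 (up to 0.123).

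**Figure D4:**
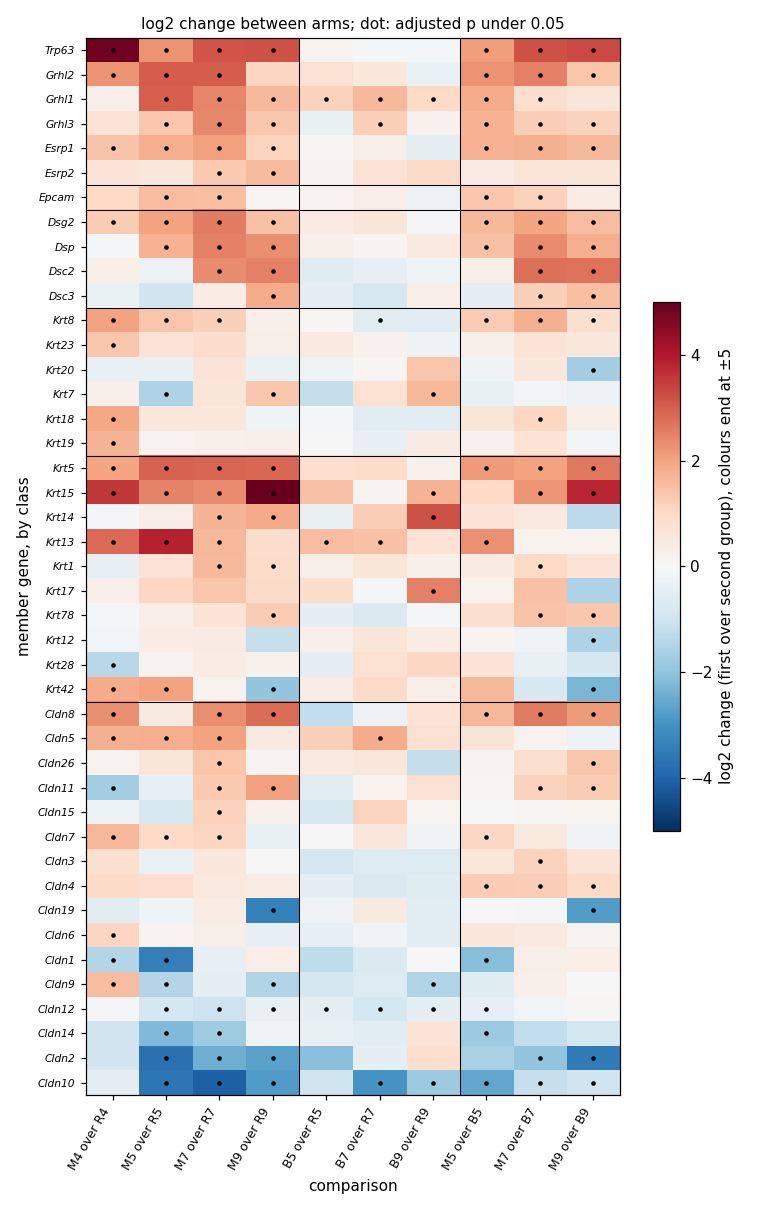
Log2 change of each of the 43 members (rows, grouped as regulators, Epcam, desmosomal genes, simple-epithelial keratins, other keratins and claudins) in 10 comparisons between arms (columns). Red is higher and blue lower in the first group, colours end at 5 and -5, and a dot marks a limma adjusted p under 0.05. The columns of M over R and M over B are mostly red for regulators and desmosomal genes, and Cldn10 and Cldn2 are blue there.

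Over days 5 to 9 the members moved in both directions within each arm. In R9 over R5, 4 members were higher and 11 lower, beside 17.7% and 21.5% of listed genes. In B9 over B5 these counts were 8 and 9, beside 20.4% and 23.2% (7 and 12 after quantile normalization), and in M9 over M5 8 and 8, beside 14.4% and 11.4%. The changes from day 5 to day 9 differed between M and R for 16 members, beside 38.9% of listed genes, and between B and R for 2, beside 2.11%. Without R5 replicate 3, R9 over R5 called 9 members, and B9 over B5 called 10 without B5 replicate 3. M9 over M5 called 10 without M5 replicate 2 or without M9 replicate 2. Dsc2 fell in R and B by 1.60 and 1.22 on the log2 scale and rose in M by 1.21. Cldn5 fell in M by 2.69 and Krt8 by 1.50. Beside Cldn5, 8 of 10 endothelial and blood genes fell in M, with sums of 3574.9 to 4217 in M5 and 1459.8 to 1996.8 in M9, and their part was not tested. Cldn19 went from 2.816, 4.785 and 4.252 in R5 to the R9 levels given above (log2 change 2.82, SE 0.54), and in B rose by 2.43.

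Krt42, one of the keratins that was high in mESCs, rose in R and B by 2.26 and 2.19 and fell in M by 1.74. Its libraries were at 12.32, 15.82 and 24.49 in R9, at 20.89, 12.89 and 33.53 in B9, and at 3.242, 2.038 and 6.161 in M9. The rises were lost without R5 replicate 3 (limma adjusted p = 0.051) and without B5 replicate 3 (0.0997). The fall in M was lost without M5 replicate 1 or 2 or M9 replicate 1 or 2 (up to 0.164). The difference of the M and R changes was -4.00 (SE 0.90, limma adjusted p = 0.000849). Beside these genes, all 10 pluripotency genes were higher in R9 than in R5, with sums of 6543.3 to 12409.1 against 634.4 to 1483.5, and none under 10 in all libraries of a group. In M9 over R9, 9 of them were lower, with sums of 1038.9 to 2205.9 in M9. Their part in the changes of Krt42 and Cldn19 was not tested.

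Lists of other epithelial genes, chosen with earlier results of these data known, were also read in the M arm. Of 29 listed junction and adhesion genes, 13 were higher and 4 lower in M5 than in R5, 13 and 3 on day 7, and 12 and 3 on day 9. The medians were 0.60, 0.68 and 0.33, beside the medians of all genes given above. Jup, the plaque protein plakoglobin, had 5666, 4822 and 3568 in M5 and 776.5, 1159 and 711 in R5 (log2 change 2.42, SE 0.33). Cdh3, or P-cadherin, had 7643, 5887 and 5763 in M7 against 640.3, 594.5 and 293.9 (log2 change 3.72, SE 0.48). Pkp1, a desmosomal plaque protein, was higher by 3.35 in M9. Pard6b, a polarity protein, was higher by 0.99 in M5, whereas Tjp3, a tight junction scaffold, was lower by 1.48 in M7 and by 1.81 in M9.

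Of 19 listed epithelial regulators and proteases, 10 were higher and 0 lower in M4 than in R4, 13 and 1 on day 5, 10 and 2 on day 7, and 5 and 3 on day 9. Their median differences were 1.15, 1.23, 1.01 and -0.09, and that of all genes on day 4 was -0.02. Gata2 had 1418, 906.5 and 981.7 in M4 against 123.4, 149.2 and 123.6 in R4 (log2 change 3.03, SE 0.63). Dlx5, a homeobox factor, had 209.1, 375.4 and 153.6 in M9 against 19.13, 12.04 and 8.405 in R9 (log2 change 4.09, SE 0.53). Dlx3, another homeobox factor, was higher by 1.82 in M7. Elf3 was lower by 1.45 in M9.

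Among 12 listed mesenchymal genes and epithelial repressors, 5 were higher in M than in R and 3 lower on day 5, 6 and 0 on day 7, and 5 and 1 on day 9. The median differences were 1.48, 1.63 and 1.47. Snai1, a repressor that binds E-boxes, had 973.6, 1118 and 1246 in M7 against 192.2, 200.3 and 183.1 in R7 (log2 change 2.52, SE 0.27). Fn1, or fibronectin, was higher by 1.71 there and Twist2 by 2.06. Snai2 was higher by 2.69 in M9. Members of the epithelial and of the mesenchymal list were thus higher in the same cultures, and bulk RNA does not tell whether in the same cells.

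Markers of other cell types moved with the M arm. Of 12 neural genes, 9, 10 and 9 were lower in M than in R on days 5, 7 and 9 and none was higher. On day 4, 5 were lower, with sums of 4418.3 to 6979.5 in M4 against 15195.1 to 23855.8 in R4. The sums were 3250.4 to 5403.1 in M5 against 23162.1 to 33361 in R5, 5611.3 to 11665.2 in M7 against 28017.6 to 42701.2 in R7, and 7263.9 to 8275.4 in M9 against 23325.5 to 31669.2 in R9. Of 10 somite and lateral mesoderm genes, 6, 8 and 9 were higher and 2, 0 and 0 lower. Their sums were 7439 to 13203.4 in M5 against 6021.1 to 8771.4 in R5, 5166.3 to 10723.7 in M7 against 1084.9 to 1387.3 in R7, and 6239.8 to 10717 in M9 against 686.8 to 1015.6 in R9. Of 13 endoderm genes, 7 were higher and 2 lower in M5, with sums of 9960 to 11052.6 against 1998.2 to 3026.3. In M7 6 were higher, with sums of 7777.1 to 10082.9 against 1439.9 to 1844. In M9 3 were higher and 1 lower, with sums of 3846.7 to 7149.7 against 1551.8 to 2160, and Afp and Apoa1 were under 10 in all R9 libraries. As drawn up, the trophoblast and amnion list shares Gata3, Tfap2c and Wnt6 with the epithelial regulators above, so these lists are not separate. Of 9 trophoblast and amnion genes, 3, 2, 4 and 3 were higher in M than in R on days 4, 5, 7 and 9, and 0, 0, 1 and 2 lower. Their sums were 8352.9 to 9883.7 in M4 against 3006.6 to 3800.5 in R4, 9025.3 to 10294.6 in M5 against 2099.5 to 3221.7 in R5, 9755.5 to 10798.1 in M7 against 2372.6 to 4681.9 in R7, and 4957.2 to 7554.7 in M9 against 2939.2 to 3576.5 in R9. In B7 they were 10574.5 to 16642.1. None of the other genes of these lists was under 10 in all libraries of those groups. Their part in the changes of the keratin, claudin and desmosomal genes was not tested.

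**Figure D5:**
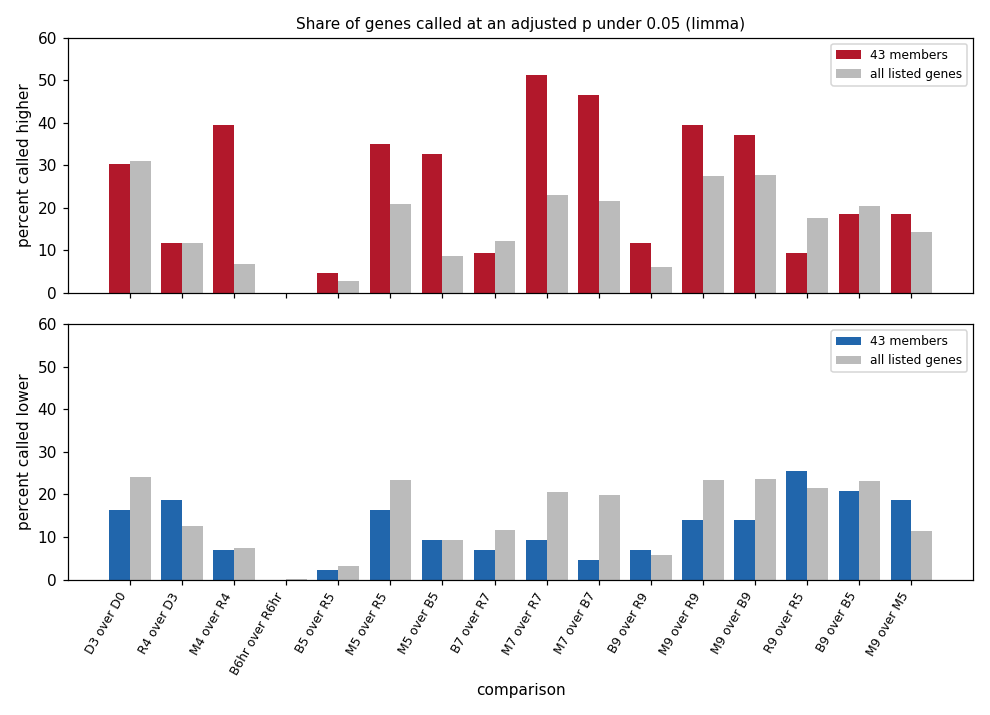
Percent of genes called higher (upper panel) and lower (lower panel) at a limma adjusted p under 0.05 in 16 comparisons. Coloured bars are the 43 members and grey bars all listed genes. In M7 over R7 22 members were called higher, beside 22.9% of listed genes, and in R9 over R5 4 were, beside 17.7%.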

How the data were processed

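The authors deposited 1 table with a normalized signal per gene and library, whose header gives no unit, and which is not a count: 0 values are 0 and 1 is whole. The columns headed fpkm and the rank, a score for each gene as deposited by the authors, were made by them in a way the header does not state and were not used. The log2 fold changes and p-value columns in the authors' deposited table were used only where named. The submitters' processing notes list Picard, edgeR and mm10 with no role. For the aligner and the read counter, their names were not given in the sources used here. Libraries were made with a kit for mRNA, per the labels' protocols.

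Levels were fitted as log2(level + 1) with limma 3.58.1 in R 4.3.3 (robust empirical Bayes with a trend, each group a coefficient, 45 libraries), with Benjamini-Hochberg adjustment over 11220 genes in each of 16 comparisons and 3 differences of effects. Requiring level 1 in 3 or more libraries removed 0 genes. The procedure was tested on simulated data. Members and gene lists were chosen with earlier results of these data known. Named are members by role, up to 5 called members per direction and comparison, a fixed set (Krt8, Krt18, Krt19, Epcam, Trp63, Cldn6, Cldn5, Grhl2, Esrp1, Dsp), and up to 3 genes per list. Jup, Cdh3, Dlx5 and other list genes follow that rule, and 1 gene that it would name is not reported here. Members named beyond it were chosen after their values were seen. Same-numbered libraries were taken as pairs only where the correlations of all their deviations from the group means exceeded 0.1, which held for B6hr with R6hr (0.586, 0.189 and 0.465). Coordinates are those of whole protein-coding genes in GENCODE M21 (mm10). Alternatives were pseudocounts of 0.1 and 5, quantile normalization, no filter, a replicate block, fits on the compared libraries alone and fits with 1 library left out. Added after seeing the data were the block within the 6 h libraries, the 6 h groups without number 1, D0 without replicates 1 and 2, D3 without replicates 2 and 3, and the authors' deposited test. Plots used Python 3.11.15 and matplotlib 3.10.9.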

Additional observations from a re-analysis of the deposited data

Results flagged for a closer look

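Effects that differed between arms, by a contrast of 4 groups in the limma fit, are given as log2 differences. The effect of 24 h of BMP4 was larger when it began on day 3 with RA than on day 4 after RA for Trp63 (4.72), Cldn8 (3.56), Cldn9 (2.45), Krt18 (2.02) and Krt8 (1.92). The call of Cldn9 was lost in 7 of the fits that left out 1 library (without R4 replicate 1 or 3, M4 replicate 1 or 3, R5 replicate 1, or B5 replicate 1 or 2; limma adjusted p up to 0.0873), and those of Cldn8 and Cldn9 when the compared libraries were fitted alone. The groups compared differ in day as well as in treatment.

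From day 5 to day 9 the change in B exceeded that in R for Krt14 (3.56) and Krt7 (2.84). Each call was lost in several fits that left out 1 library (adjusted p up to 0.15 and 0.0758), for Krt14 without R5 replicate 2 or 3, B5 replicate 2 or 3, R9 replicate 2 or 3 or any B9 library, and for Krt7 without R5 replicate 2, B5 replicate 2 or 3, or R9 replicate 2 or 3.

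The change in M from day 5 to day 9 exceeded that in R for Cldn1 (3.73), Krt15 (3.06), Krt7 (2.91), Dsc3 (2.82) and Dsc2 (2.81). It was below that in R for Krt42 (-4.00), Cldn19 (-3.15), Krt13 (-2.95), Grhl2 (-1.95) and Epcam (-1.46). The call of Grhl2 was lost without R5 replicate 3, M5 replicate 1, R9 replicate 3 or M9 replicate 3 (adjusted p up to 0.096) and after quantile normalization. The libraries on which the call of Epcam depended are named above.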

How the results depend on the processing

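Of 275 called values, none changed sign in 3491 refits and 387 refits lost the call. Fewer calls held with every library left out in turn, and their share differed by comparison. Kept throughout were 19 of 22 calls in M5 over R5, 13 of 22 in M7 over B7, 8 of 17 in B9 over B5 and 8 of 16 in M9 over M5. The count of called members moved by over 1.5 times in few settings. Fitted on the compared libraries alone, M4 over R4 gave 11, B6hr over R6hr 4, B5 over R5 0 and the B against R difference over time 1. That last count was also 1 with the replicate block and with a pseudocount of 0.1. B6hr over R6hr gave 1 with a pseudocount of 5, 10 with the compared libraries alone and the replicate block, and 2 by the authors' deposited test. R4 over D3 gave 7 without D3 replicates 2 and 3. The replicate block changed no other count by over 1.5 times. With 1 library left out, counts ranged from 13 to 19 for M4 over R4 (13 without M4 replicate 2), 0 to 2 for B6hr over R6hr (2 without B6hr replicate 3), 0 to 4 for B5 over R5, 2 to 8 for B9 over R9, 9 to 16 for R9 over R5 (9 without R5 replicate 3), 10 to 18 for B9 over B5 (10 without B5 replicate 3), 10 to 12 for M9 over M5 (10 without M5 or M9 replicate 2) and 0 to 2 for the B against R difference. The cause of these shifts was not tested, beyond the fewer samples. Quantile normalization moved the median log2 difference of all genes in D3 over D0 from 0.07 to -0.05. The unknown depth limits what low keratins such as Krt14 and Krt5 can show.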

Other observations

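Cldn14, Cldn15, Krt1, Krt12, Krt28 and Krt78 stayed under a level of 30 in every library. Some of their calls were lost when 1 library was left out, such as Krt28 in M4 over R4 and Cldn15 in M7 over R7. For example, Krt1, a keratin of the upper epidermis, was called higher in M7 than in R7 (log2 change 1.63, SE 0.36, limma adjusted p = 0.000426), with a highest level of 28.73 anywhere. Of the 43 members, 11 lie on chromosome 11 and 7 on chromosome 15, which hold the mouse keratin clusters. These counts include Cldn7 on chromosome 11 and Grhl2 on chromosome 15, which are not keratins. Within the chromosome 11 group Krt15 and Krt19 lie 4.9 kb apart, and Krt15 was higher in M9 than in R9 by 5.54 while Krt19 differed by 0.27.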
